A study of Mus musculus with 9 samples.

Results

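The genes described here are the 9 integrin chains Itgb3, Itgb1, Itgb5, Itgav, Itga1, Itga2, Itga4, Itga5 and Itga6, which bind extracellular matrix. They were chosen by gene symbol, and all 9 were found among the 22173 genes of the count files and among the 12094 genes that passed the filter on low counts. RNA sequencing was done on wild-type primary neutrophils from mouse bone marrow, held in gelatin methacryloyl (GelMA), a crosslinked gelatin hydrogel of adjustable stiffness. Gels of low stiffness (1.5 kPa) were the control for gels of middle (2.6 kPa) and high (5.7 kPa) stiffness. Cells spent 2 days in a gel under RPMI medium containing 10% fetal bovine serum, and each group had 3 libraries, numbered 1 to 3. The labels give neither the age, sex or strain of the mice nor the purity of the neutrophils.

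Integrins are receptors made of 1 alpha and 1 beta chain that span the cell membrane and tie the matrix outside to the actin cytoskeleton inside. The alpha chain largely sets the ligand: Itga1 and Itga2 bind collagen, Itga6 binds laminin, Itga4 and Itga5 bind fibronectin, and Itgav binds vitronectin and other proteins that carry the Arg-Gly-Asp (RGD) motif. Itgb1 pairs with each of these alpha chains, Itgb3 pairs with Itgav or, in platelets, with Itga2b, and Itgb5 pairs with Itgav. Gelatin is denatured collagen, in which RGD motifs are exposed, and neutrophils are better known for the leukocyte beta chain Itgb2 than for these chains.

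The libraries held 13.2 to 19.5 M counts and 14042 to 14914 genes with at least 1 count. Replicate 1 of each group stood apart from replicates 2 and 3: 65.4% of the tested genes differed between them (edgeR's quasi-likelihood test with Benjamini-Hochberg adjustment, adjusted p under 0.05). All 11 genes of a neutrophil marker list had counts, and their summed level, in CPM (counts scaled by TMM to an equal total in every library), was 3182 to 3731 in replicate 1 against 13703 to 23325 in replicates 2 and 3. All 11 genes of a macrophage list also had counts, with a summed level of 7539 to 8738 CPM in replicate 1 and 4669 to 7350 CPM in replicates 2 and 3. That higher sum in replicate 1 rests on few genes: Gpnmb, Cd63 and Adgre1 were higher in replicate 1 and 6 of the 11 lower (median log2 fold change -0.77), and without Gpnmb the sum was 2976 to 3383 CPM in replicate 1 and 3504 to 3996 CPM in replicates 2 and 3. The labelled cell type is therefore present with markers of another one, and the changes below are not assigned to neutrophils alone. In bulk RNA, fewer cells of a type and less RNA per cell cannot be told apart. Whether replicates are separate mice or cultures is not stated in the labels, so p-values measure only how far these libraries spread, and that spread may be technical.

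Each comparison was tested without and with a block for replicate number, which lets every replicate number have its own level. In the design the fit without the block was the main one and the block an alternative. Between gels, Itgb3 alone of the 9 chains passed in the main fit, for high against low. Log2 fold changes are given ± standard error with n = 3 per group. Here "rose" and "fell" mean an edgeR adjusted p under 0.05 over all tested genes in the alternative fit, with the block. It is said where the fit without the block also passed.

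Promoter sequence from RefSeq (build GRCm38.p6) is shown for Itga1 and Itga5, the chains that rose in high gels, and for Itga2, the collagen-binding neighbour of Itga1 that fell. Of the 9 chains, 7 had an entry; Itgb3 and Itga6 had none. Each sequence is the 250 bases before the gene start, read 5′ to 3′ on the gene's strand. Capitals mark the ETS core GGAAG and the GC box GGGCGG, on either strand (CTTCC and CCGCCC are their other strand).
Itga1, chr13:115101965-115102214, minus strand: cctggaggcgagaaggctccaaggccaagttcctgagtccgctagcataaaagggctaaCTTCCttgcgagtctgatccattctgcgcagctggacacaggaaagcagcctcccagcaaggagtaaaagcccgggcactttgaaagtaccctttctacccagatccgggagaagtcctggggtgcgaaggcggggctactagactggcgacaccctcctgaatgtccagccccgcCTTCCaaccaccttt
Itga2, chr13:114932101-114932350, minus strand: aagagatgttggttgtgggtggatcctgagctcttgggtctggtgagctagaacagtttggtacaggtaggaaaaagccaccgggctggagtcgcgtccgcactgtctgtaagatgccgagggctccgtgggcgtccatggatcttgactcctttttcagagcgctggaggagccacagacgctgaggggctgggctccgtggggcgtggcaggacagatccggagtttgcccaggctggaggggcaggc
Itga5, chr15:103366792-103367041, minus strand: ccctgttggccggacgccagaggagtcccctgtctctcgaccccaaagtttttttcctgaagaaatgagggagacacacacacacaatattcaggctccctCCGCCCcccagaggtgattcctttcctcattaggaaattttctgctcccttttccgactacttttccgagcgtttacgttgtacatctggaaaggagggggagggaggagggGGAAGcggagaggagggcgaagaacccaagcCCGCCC
Itga1 and Itga2 lie next to each other on chromosome 13, with 0 annotated genes between them. In all 6 motifs, picked after the values were known, were searched on both strands. Besides those marked, they were the AP-1 site TGANTCA, the TEAD site GGAATG, the RUNX site TGTGGT and the GATA site AGATAA. The Itga1 window held the ETS core at 2 places, the Itga5 window held it once beside 2 GC boxes, and the Itga2 window held none of the 6 motifs. Among 32851 promoter windows of the same length the ETS core was in 64.1% and the GC box in 32.7%, the AP-1 site in 6.75%, the TEAD site in 12.6%, the RUNX site in 14% and the GATA site in 9.99%. Of the 7 chains with a window, 4 held the ETS core, 4 the GC box, 1 the TEAD site (Itgb1), 1 the RUNX site (Itga4) and 0 either of the others. These matches describe letters only.

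Set per exonic length, as the deposited FPKM, Itgb1 mRNA was the most abundant of the 9 chains. It averaged 126.55 ± 8.06 FPKM (SD over 9 libraries, range 116 to 139), and every library lay above every value of any other chain. Next came Itga5 at 23.1 ± 2.73 FPKM, Itga4 at 19.4 ± 10.8 FPKM and Itgb3 at 18.9 ± 7.90 FPKM, whose ranges overlapped. Itgb5 (12.1 ± 2.92 FPKM, 7.13 to 14.8), Itga6 (11.7 ± 6.40 FPKM, 4.57 to 22.0) and Itgav (7.07 ± 0.762 FPKM, 5.55 to 7.99) had lower means. Their ranges overlapped each other and that of Itga4 (4.01 to 30.2 FPKM), and Itgb5 and Itga6 also overlapped Itgb3 (10.4 to 31.6 FPKM). The collagen-binding chains had the lowest means, Itga1 at 1.75 ± 1.35 FPKM (0.42 to 4.65) and Itga2 at 0.369 ± 0.272 FPKM (0.08 to 0.85), and their ranges overlapped. The highest Itga1 value lay above the lowest values of Itga4 and Itga6.

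**Figure D1:**
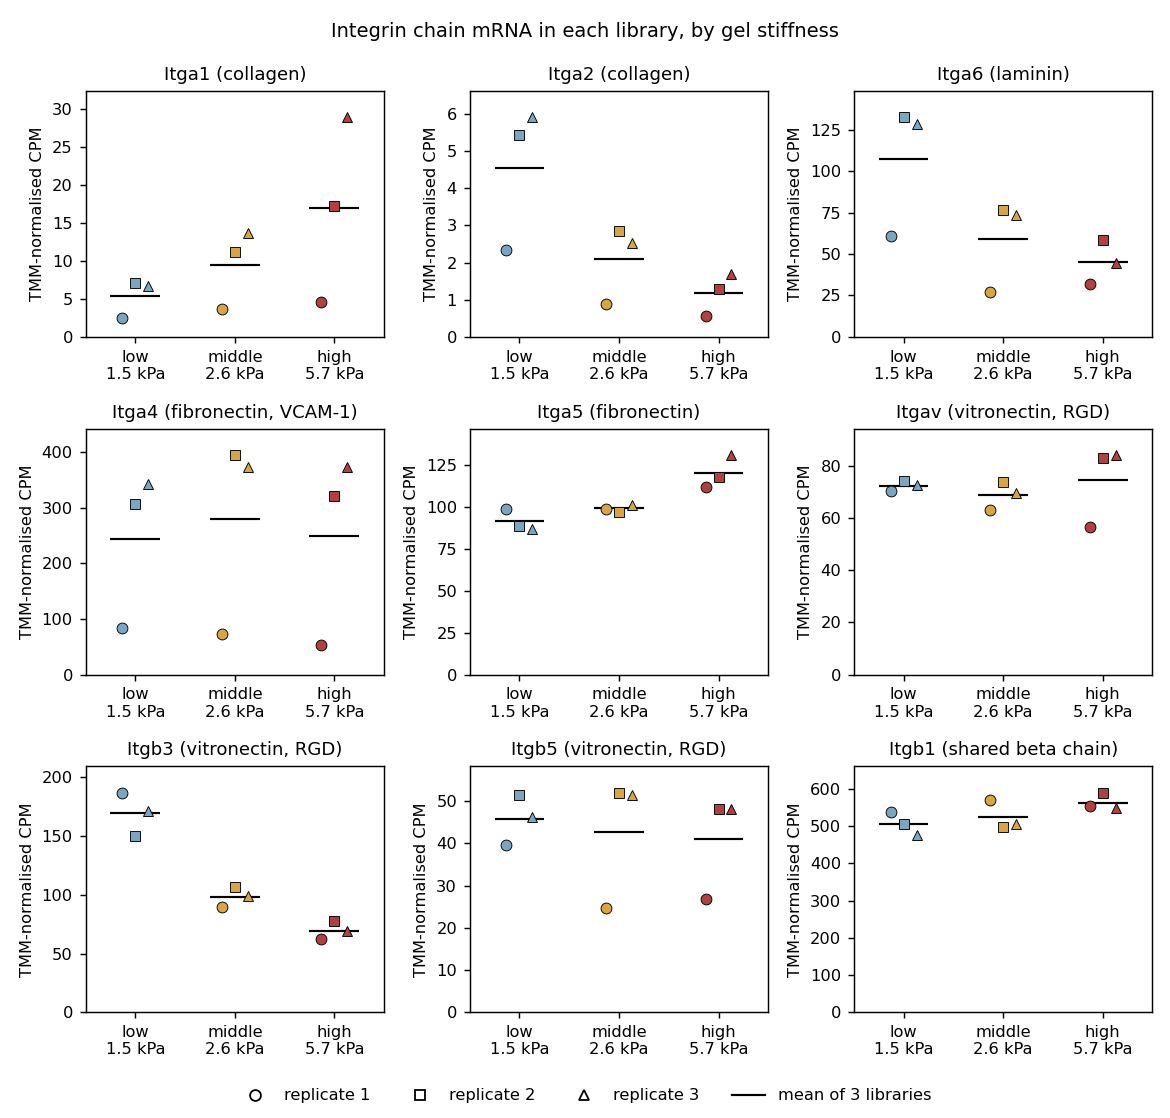
Normalised counts (TMM-normalised CPM, linear axes from 0) of the 9 integrin chains in each of the 9 libraries, by gel stiffness, with a marker shape per replicate number and a line at the mean of 3 libraries. Itgb3 falls to 61.9 to 77.9 CPM in the 3 high libraries, against 149.7 to 187 CPM in the 3 low libraries, and Itga4 lies at 53.1 to 82.9 CPM in replicate 1 of every gel and above 305 CPM elsewhere.

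The comparison of high with low gels asks what the largest step in stiffness did to these chains. Itgb3, Itga2 and Itga6 fell in high gels, Itga1 and Itga5 rose, and Itgb1, Itgb5, Itgav and Itga4 did not pass the test. That is 5 of 9 chains (2 higher and 3 lower), beside 15.5% of all tested genes with the block (6.72% higher and 8.73% lower). Without the block Itgb3 alone of the 9 passed, beside 0.091% of all tested genes. In replicates 2 and 3 alone, fitted without a block, 6 of 9 passed, beside 26.3% of tested genes, Itgb1 being the one added. The CPM of high and low libraries did not overlap for 5 of 9 chains (Itgb3, Itga2 and Itga6 lower, Itgb1 and Itga5 higher), beside 12.7% of all tested genes.

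Among the chains placed here in the vitronectin class (Itgb3, Itgav and Itgb5), Itgb3 was the one that passed. Itgb3 had 187, 149.7 and 171 CPM in low gels (replicates 1 to 3), 89.3, 106.5 and 98.8 CPM in middle gels and 61.9, 77.9 and 68.8 CPM in high gels. No value of one gel reached into the range of another, and the order low, middle, high held within each replicate number. Itgb3 averaged 69.5 ± 8.003 CPM in high gels and 169 ± 18.6 CPM in low gels (SD, n = 3 each), a log2 fold change of -1.29 ± 0.11 with the block (edgeR adjusted p = 9.96e-05) and -1.28 ± 0.15 without it (edgeR adjusted p = 0.0365). The call without the block was kept when high replicate 1 was left out and was lost when any other single library was left out (edgeR adjusted p = 0.0619 to 0.235), while with the block all 9 such fits passed. Within replicate numbers 1, 2 and 3, the log2 difference of high minus low was -1.59, -0.94 and -1.31.

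The other chains of the vitronectin class, Itgav and Itgb5, did not pass the test with the block, nor did the shared chain Itgb1. Itgav, the alpha chain Itgb3 pairs with outside platelets, had 70.6, 74.2 and 72.6 CPM in low gels, 63.3, 73.9 and 69.7 CPM in middle gels and 56.5, 83.0 and 84.3 CPM in high gels. The high values lay on both sides of the low ones, and the log2 fold change of high against low was 0.03 ± 0.11 (edgeR adjusted p = 0.898). Itgb5, another beta partner of Itgav, had 39.7, 51.5 and 46.3 CPM in low gels, 24.8, 52.0 and 51.5 CPM in middle gels and 26.9, 48.1 and 48.1 CPM in high gels. Its groups overlapped, and its log2 fold change was -0.20 ± 0.14 (edgeR adjusted p = 0.356). Itgb1, the shared beta chain, had 538, 506 and 476 CPM in low gels, 569, 498 and 505 CPM in middle gels and 553, 589.8 and 547 CPM in high gels. All 3 high libraries lay above all 3 low ones, but the log2 fold change was 0.16 ± 0.09 (edgeR adjusted p = 0.247), and it passed in replicates 2 and 3 alone without a block (0.21 ± 0.07, edgeR adjusted p = 0.048) and not with one (0.0594).

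Counted per length within each library, Itgb3 made up a smaller share of the summed mRNA of the 3 beta chains in high gels. The Itgb3 share was 18.4%, 15.7% and 18.5% in low gels, 9.50%, 11.8% and 10.95% in middle gels and 6.94%, 7.81% and 7.42% in high gels. The Itgb1 share was 83.9% to 88.0% in high gels and 73.1% to 75.3% in low gels. The ratio of Itgb3 to Itgb5 was 1.06 ± 0.274 in high gels (0.853 to 1.37) and 2.25 ± 0.540 in low gels (1.73 to 2.81), with no overlap. These ratios show unequal change between chains and were not tested.

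The 2 collagen-binding chains moved in opposite directions. Itga1 had 2.49, 7.10 and 6.69 CPM in low gels, 3.62, 11.2 and 13.7 CPM in middle gels and 4.62, 17.2 and 28.9 CPM in high gels. The value of high replicate 1 was below low replicates 2 and 3, so the gels overlapped, but Itga1 increased with stiffness within each replicate number. Its log2 fold change of high against low was 1.52 ± 0.20 with the block (edgeR adjusted p = 0.000895) and 1.63 ± 0.73 without it (edgeR adjusted p = 0.665). Itga1 averaged 16.9 ± 12.1 CPM in high gels and 5.43 ± 2.55 CPM in low gels (SD, n = 3 each).

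Itga2, the other collagen receptor alpha chain and the one found on platelets, had 2.34, 5.42 and 5.91 CPM in low gels, 0.888, 2.84 and 2.53 CPM in middle gels and 0.569, 1.30 and 1.68 CPM in high gels. Every high library lay below every low library, and within each replicate number the value was lower at each step of stiffness. The counts behind these values were small, 8, 23 and 26 in the high libraries and 31, 100 and 98 in the low ones. The log2 fold change of high against low was -1.95 ± 0.26 with the block (edgeR adjusted p = 0.000818) and -1.93 ± 0.58 without it (edgeR adjusted p = 0.363). With the block, Itga1, Itga2 and Itga6 each passed in all 9 fits that left out 1 library.

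Set per length, the ratio of Itga1 to Itga2 mRNA was 1.26, 1.56 and 1.35 in low gels, 4.85, 4.67 and 6.42 in middle gels and 9.65, 15.8 and 20.4 in high gels. No value of one gel reached into the range of another, and replicate 1, where both chains were low, followed the same order. The ratio has no test of its own, and its high values rest on the small Itga2 counts. In the GRCm38.p6 RefSeq annotation Itga1 overlaps Pelo, a ribosome rescue factor with 8.55 ± 2.88 CPM in high gels and 7.98 ± 1.66 CPM in low gels. Itga2 overlaps the long noncoding RNA gene Gm34845, Itgav the pseudogene Dnmt3l-ps1 and Itga5 the microRNA gene Mir6963, whose levels were not examined. The library kit keeps the strand, but no source used here says whether counting used it, so reads of overlapping genes may be shared between them.

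**Figure D2:**
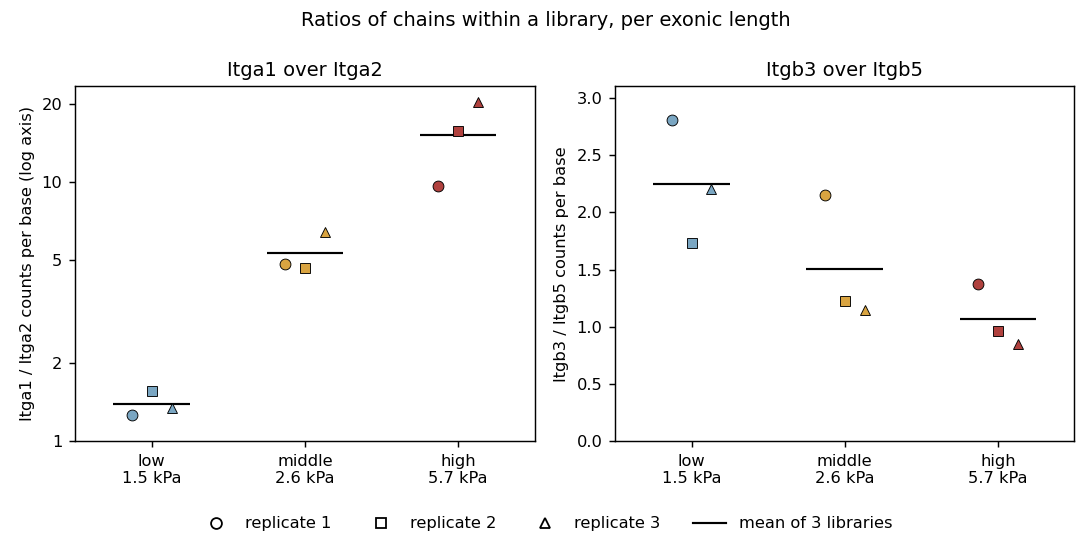
Ratio of Itga1 to Itga2 (left, log axis) and of Itgb3 to Itgb5 (right, linear axis), as counts per base of exonic length, in each library by gel stiffness, with a line at the mean of 3 libraries. The Itga1 to Itga2 ratio is 9.65 to 20.4 in high gels and 1.26 to 1.56 in low gels, while the Itgb3 to Itgb5 ratio is 0.853 to 1.37 in high gels and 1.73 to 2.81 in low gels.

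The laminin-binding chain Itga6 fell in high gels. Itga6 had 61.1, 132 and 129 CPM in low gels, 27.1, 76.6 and 73.7 CPM in middle gels and 31.8, 58.7 and 44.3 CPM in high gels. All high libraries lay below all low ones, and the step from middle to high went down in replicates 2 and 3 and up in replicate 1. Itga6 averaged 44.9 ± 13.5 CPM in high gels and 107 ± 40.1 CPM in low gels (SD, n = 3 each). The log2 fold change was -1.21 ± 0.15 with the block (edgeR adjusted p = 0.000831) and -1.26 ± 0.45 without it (edgeR adjusted p = 0.501). Itgb4, the beta chain that pairs with Itga6 in epithelium, averaged 1.26 ± 1.14 CPM in high gels and 0.612 ± 0.320 CPM in low gels.

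Of the fibronectin-binding chains Itga5 rose and Itga4 did not pass the test. Itga5, the classical fibronectin receptor alpha chain, had 98.8, 88.5 and 86.9 CPM in low gels, 98.98, 97.2 and 101 CPM in middle gels and 112, 118 and 131 CPM in high gels. Every high library lay above every middle and every low library. Itga5 rose by 0.40 ± 0.09 on the log2 scale with the block (edgeR adjusted p = 0.0127), a call lost when low replicate 3, high replicate 2 or high replicate 3 was left out (edgeR adjusted p = 0.0902, 0.0639 and 0.0782). Without the block the edgeR adjusted p was 0.356.

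Itga4, which binds fibronectin and VCAM-1 and also pairs with Itgb7, had 82.9, 306 and 343 CPM in low gels, 72.8, 394 and 372 CPM in middle gels and 53.1, 321 and 372 CPM in high gels. The gels overlapped, and the spread lay between replicate 1 and the other libraries. The log2 fold change of high against low was -0.14 ± 0.14 with the block (edgeR adjusted p = 0.532) and 0.03 ± 0.85 without it. Cerkl, which overlaps Itga4 in the annotation, averaged 0.119 ± 0.114 CPM in high gels and 0.257 ± 0.1151 CPM in low gels.

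**Figure D3:**
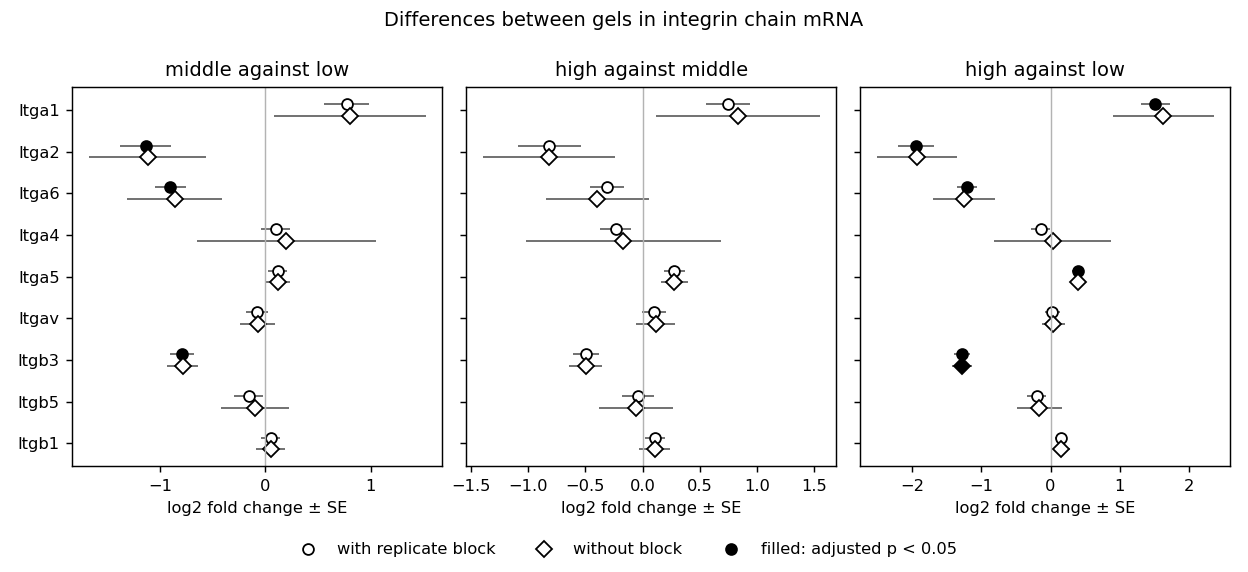
Log2 fold change ± SE (horizontal axis) of each chain for middle against low, high against middle and high against low, with the replicate block (circles) and without it (diamonds), filled where the edgeR adjusted p was under 0.05. For high against low, 5 circles and 1 diamond are filled; for middle against low, 3 circles are filled, and for high against middle none is.

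The comparison of middle with low gels asks what the first step in stiffness did. Itgb3, Itga2 and Itga6 fell in middle gels, 3 of 9 chains beside 1.84% of all tested genes with the block (1.03% lower and 0.81% higher), and no chain rose. Itgb3 averaged 98.2 ± 8.62 CPM in middle gels and 169 ± 18.6 CPM in low gels, a log2 fold change of -0.79 ± 0.11 (edgeR adjusted p = 0.00758). Itga6 averaged 59.1 ± 27.8 CPM in middle gels and 107 ± 40.1 CPM in low gels, a log2 fold change of -0.90 ± 0.14 (edgeR adjusted p = 0.0163). Itga2 averaged 2.09 ± 1.05 CPM in middle gels and 4.56 ± 1.94 CPM in low gels, a log2 fold change of -1.14 ± 0.24 (edgeR adjusted p = 0.0376).

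Of these falls in middle gels, that of Itgb3 was the only one whose middle and low libraries did not overlap, against 7.76% of all tested genes. Itgb3 lost its call without low replicate 3, middle replicate 1 or middle replicate 3 (edgeR adjusted p = 0.0525, 0.0706 and 0.0613). Itga6 lost it without low replicate 2, low replicate 3, middle replicate 1 or middle replicate 2 (edgeR adjusted p = 0.0753, 0.103, 0.0619 and 0.101), and Itga2 kept it only without low replicate 1 or high replicate 1 (0.0291 and 0.0262). Itga1 had a log2 fold change of 0.77 ± 0.21 (edgeR adjusted p = 0.101), which passed in replicates 2 and 3 alone with a block (0.83 ± 0.19, edgeR adjusted p = 0.0154, beside 6.75% of tested genes called). Itga5 was at 0.12 ± 0.09 (edgeR adjusted p = 0.611). Without the block, edgeR called 0 of 9 chains, with Itgb3 at an unadjusted p under 0.05, and DESeq2 called Itgb3; edgeR then called 0% of all tested genes, with 2.63% at an unadjusted p under 0.05.

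Between high and middle gels edgeR called 0 of the 9 chains with the block, beside 0.0165% of all tested genes, and 0 without it, beside 0%. At an unadjusted p under 0.05 there were 4 chains with the block (Itgb3, Itga1, Itga2 and Itga5, beside 10.5% of tested genes) and 2 without it (Itgb3 and Itga5, beside 1.48%), and DESeq2 with the block called Itgb3. Itgb3 had a log2 fold change of -0.50 ± 0.11 (edgeR adjusted p = 0.187), and the difference of high minus middle was -0.52, -0.45 and -0.52 in replicate numbers 1, 2 and 3. Itga1 was at 0.75 ± 0.19 (edgeR adjusted p = 0.209), Itga2 at -0.82 ± 0.28 (0.329), Itga5 at 0.28 ± 0.09 (0.309) and Itga6 at -0.31 ± 0.15 (0.499). High and middle libraries did not overlap for Itgb3, lower in high gels, and Itga5, higher in high gels, beside 5.08% of all tested genes.

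In replicates 2 and 3 alone, 4 chains passed between high and middle, beside 6.88% of tested genes without a block and 7.37% with one. Without a block Itgb3 was at -0.49 ± 0.09 (edgeR adjusted p = 0.00818), Itga6 at -0.54 ± 0.11 (0.0117), Itga1 at 0.90 ± 0.21 (0.0295) and Itga5 at 0.33 ± 0.08 (0.0295). Across the 3 gels, 4 of 9 chains kept 1 order within all 3 replicate numbers, Itgb3 and Itga2 falling and Itga1 and Itga5 rising, beside 10.7% of all tested genes.

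Of the 9 chains 6 were lower in replicate 1 than in replicates 2 and 3, and none was higher, beside 32.5% of tested genes lower and 32.9% higher. Itga4 differed most, with 69.6 ± 15.2 CPM in replicate 1 (SD, n = 3) and 351 ± 33.9 CPM in replicates 2 and 3 (n = 6), a log2 fold change of -2.34 ± 0.13 (edgeR adjusted p = 2.35e-07, with the gel as a covariate). The log2 fold change was -1.89 ± 0.20 for Itga1 (edgeR adjusted p = 7.5e-06), -1.39 ± 0.25 for Itga2 (0.000398), -1.08 ± 0.13 for Itga6 (5.62e-05) and -0.72 ± 0.12 for Itgb5 (0.000418). Itgav was at -0.26 ± 0.09 (edgeR adjusted p = 0.0264), a call lost without middle replicate 1, high replicate 1, high replicate 2 or high replicate 3 (0.0503, 0.22, 0.0554 and 0.0587).

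Itgb3, Itgb1 and Itga5 showed no such difference past the test. Itgb3 averaged 113 ± 65.7 CPM in replicate 1 and 112 ± 40.4 CPM in replicates 2 and 3 (edgeR adjusted p = 0.573; it passed, at 0.048, when low replicate 1 was left out). Itgb1 was at 0.09 ± 0.07 (edgeR adjusted p = 0.288) and Itga5 at 0.01 ± 0.08 (0.95). What a replicate number stands for is not given in the labels, and the neutrophil marker sum and single macrophage genes move with it, in both directions, as given above; their part in these differences was not tested.

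**Figure D4:**
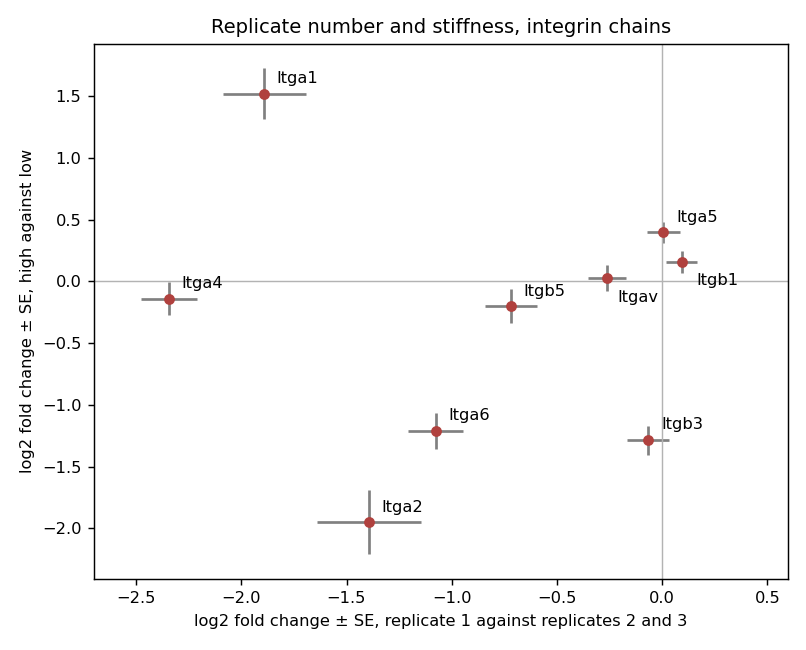
Log2 fold change ± SE of each chain for replicate 1 against replicates 2 and 3 (horizontal axis) and for high against low with the replicate block (vertical axis). Itga4 lies far left at -2.34 and near 0 on the vertical axis, while Itgb3 lies near 0 on the horizontal axis and at -1.29 on the vertical one.

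Megakaryocytes and platelets carry Itgb3 with Itga2b, and Itga2, so their markers are set beside these chains. All 11 genes of a megakaryocyte and platelet list had counts, and none was at 0 in all libraries. Their summed level was 55.4, 249 and 307 CPM in low gels, 63.8, 180.4 and 200.5 CPM in middle gels and 66.5, 151 and 169.8 CPM in high gels. In replicates 2 and 3 the sum was lower in high than in low gels, as Itgb3 and Itga2 were. In replicate 1 the sum was 66.5 CPM in high gels and 55.4 CPM in low gels, a difference carried by Pf4, platelet factor, at 39.5 CPM in high and 13.1 CPM in low gels. The other 10 markers summed to 27.1 CPM in high and 42.3 CPM in low gels of replicate 1. Pf4 was left out after its values were seen. Without it the sum was lower in high gels in all 3 replicate numbers, though Gp6 averaged higher there (11.6 against 8.995 CPM). With Pf4 included, the sum was lowest in low replicate 1 (55.4 CPM), the library where Itgb3 was highest (187 CPM). Without Pf4 it was lowest in high replicate 1, at 42.3, 33.2 and 27.1 CPM in low, middle and high gels of replicate 1. Itgb3 was at 187, 89.3 and 61.9 CPM in the same libraries. Itga2 was at 2.34 CPM in low replicate 1, below low replicates 2 and 3 (5.42 and 5.91 CPM).

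With the block, the 11 marker genes had a median log2 fold change of -1.09 in high against low gels, beside -0.0026 over all tested genes. Of these markers 6 fell and 0 rose, beside 8.73% of all tested genes lower and 6.72% higher. Itga2b, the platelet partner of Itgb3, was among those that fell: it averaged 14.9 ± 8.90 CPM in high gels and 29.8 ± 19.2 CPM in low gels, a log2 fold change of -0.96 ± 0.14 (edgeR adjusted p = 0.00147). Tubb1, the platelet beta-tubulin, was at -1.38 ± 0.12 (edgeR adjusted p = 9.21e-05). Between replicate 1 and the others, all 11 markers were lower in replicate 1, beside 32.5% of all tested genes. Itga2b had a log2 fold change of -2.10 ± 0.14 there (edgeR adjusted p = 2.55e-07). The part of these cells in the falls of Itgb3 and Itga2 was not tested.

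**Figure D5:**
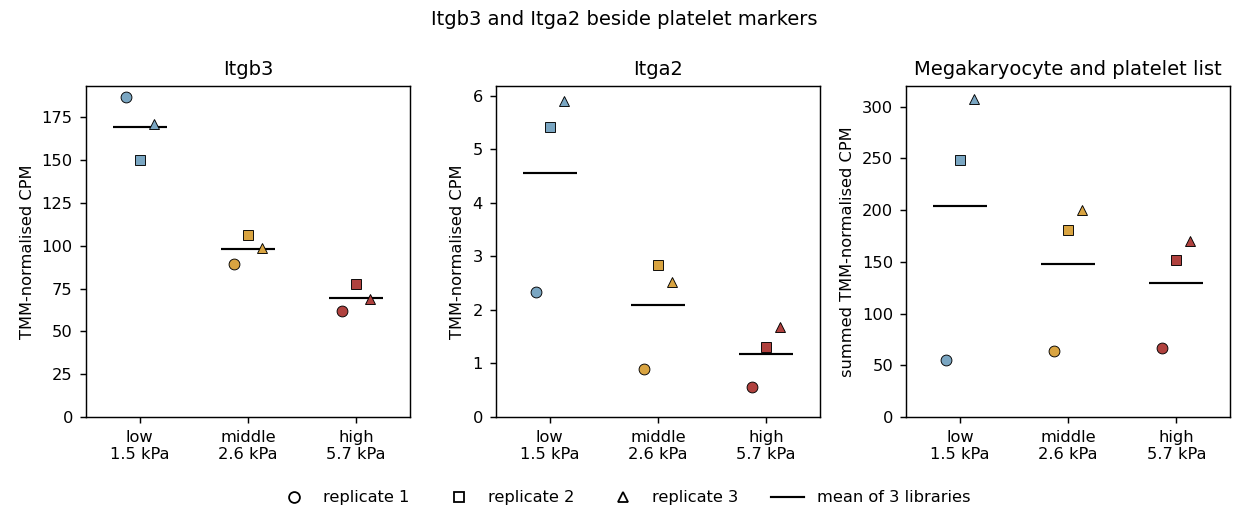
Normalised counts of Itgb3 and Itga2 and the summed normalised counts of the 11 megakaryocyte and platelet markers (vertical axes, TMM-normalised CPM from 0) in each library by gel stiffness, with a line at the mean of 3 libraries. In replicates 2 and 3 all 3 quantities are lower in high than in low gels; in replicate 1 the marker sum is 66.5 CPM in high and 55.4 CPM in low gels, and without Pf4 27.1 CPM in high and 42.3 CPM in low gels.

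Macrophages and osteoclasts also carry Itgav with Itgb3. The macrophage sum was 8738, 7350 and 7287 CPM in low gels, 7539, 5730 and 5468 CPM in middle gels and 7992, 5233 and 4669 CPM in high gels. Without Gpnmb it was 3383, 3822 and 3504 CPM in high gels and 3029, 3996 and 3867 CPM in low gels, which overlap. With the block, 5 of its 11 genes fell in high against low gels and 2 rose: Gpnmb, a macrophage glycoprotein, was at -1.04 ± 0.20 (edgeR adjusted p = 0.0116), while Csf1r, the receptor for macrophage growth factor, was at 0.59 ± 0.10 (edgeR adjusted p = 0.00322). The neutrophil sum was 3712, 13703 and 13731 CPM in high gels and 3182, 23325 and 20409 CPM in low gels, and 3 of its 11 genes fell and 0 rose. Of the 9 osteoclast markers 5 passed the filter, 2 of them fell, and the summed level was 236 to 255 CPM in high and 265 to 277 CPM in low gels. Calcr, Ocstamp, Dcstamp and Oscar averaged at most 0.122 CPM in any gel. Nfatc1 had the highest mean, 116 CPM in high and 128 CPM in low gels. Ctsk, Nfatc1 and Tnfrsf11a averaged lower in high gels, Acp5 (63.7 against 55.0 CPM) and Atp6v0d2 (18.9 against 18.5 CPM) higher. The part of these cell types in the changes of the chains was not tested.

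The genes most like each chain over the 9 libraries were ranked by Pearson's r of log2(CPM + 0.5), among tested genes averaging at least 5 CPM (9346 genes for chains that meet that level). These values are descriptions: the 9 libraries share replicate number and stiffness, and many genes came close behind. For Itgb3 they were Pdcd1lg2, an immune checkpoint ligand (r = 0.987), Mical1, an actin oxidase (0.976), and S1pr1, the sphingosine phosphate receptor (0.969), with the next gene at 0.968. Pdcd1lg2 averaged 25.3 ± 1.97 CPM in high gels and 52.5 ± 5.56 CPM in low gels (SD, n = 3 each). After removal of the replicate number means, Itgb3 was closest to Arhgef18 (0.994), Idua (0.993) and Pdcd1lg2 (0.993).

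The other chains had different nearest genes. Itga2 was closest to Tubb1 (r = 0.993), followed by Apobec1 (0.991) and Syne1 (0.982). Itga6 was closest to Mertk, a receptor for apoptotic cell uptake on macrophages (r = 0.997), followed by Kif13b (0.991) and Gabbr1 (0.989). Mertk averaged 36.0 ± 9.27 CPM in high gels and 70.1 ± 22.7 CPM in low gels. Itga1 was closest to Gpr35 (0.99), Ikbke (0.989) and Ppp1r12b (0.988), and Itga5 to Tma16 (0.97), Orm1 (0.969) and the cytokine Il1a (0.968). Itga4 was closest to Ap1g1 (0.997), Hrh2 (0.996) and Bcl9l (0.996), Itgb5 to Ms4a6c (0.995) and Cd34 (0.989), Itgav to Il1r2 (0.972), Fmnl3 (0.968) and Chfr (0.968), and Itgb1 to Man2c1 (0.974), Osgin2 (0.96) and Abhd17c (0.955).

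Other integrin chains and their partners were read from lists of the same pathway, with counts from the fit with the block, in which 15.5% of all tested genes passed for high against low. Of 10 other non-leukocyte chains 6 were tested, and in high against low gels Itga2b fell and 0 rose (median log2 fold change 0.11). Of 7 tested leukocyte chains 3 rose and 3 fell, with a median of 0.06. Itgal, the alpha chain of LFA-1, rose by 0.51 ± 0.10 (464 ± 216 CPM in high and 313 ± 114 CPM in low gels, SD, n = 3 each, edgeR adjusted p = 0.00592). Itgb7, the partner of Itga4 in homing to gut, fell by 0.64 ± 0.12 (14.3 ± 1.69 CPM in high and 22.3 ± 3.32 CPM in low gels, edgeR adjusted p = 0.00539), and Itgb2l, a neutrophil beta chain related to Itgb2, had a log2 fold change of -1.09 ± 0.15 (edgeR adjusted p = 0.00119). The neutrophil alpha chain Itgam and its partner Itgb2 rose by 0.40 ± 0.09 and 0.29 ± 0.09 (edgeR adjusted p = 0.0103 and 0.0487).

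Inside the cell, talins and kindlins switch integrins on and adaptors link them to actin. Of 14 tested activators and inhibitors 1 rose and 0 fell: Fyb, an adaptor of integrin activation in leukocytes, at 0.46 ± 0.13 (edgeR adjusted p = 0.0338). Of 24 tested focal adhesion adaptors and actin links 5 rose and 1 fell, with a median log2 fold change of 0.08. Tes, a LIM-domain protein of focal adhesions, had 37.2, 37.9 and 31.4 CPM in low gels, 59.1, 56.2 and 57.5 CPM in middle gels and 76.5, 107.8 and 116 CPM in high gels. The gels did not overlap, and Tes rose by 1.49 ± 0.14 (edgeR adjusted p = 0.000217), also without the block (0.0365). Vasp, an actin polymerisation factor, rose by 0.82 ± 0.11 (edgeR adjusted p = 0.000897) and vinculin, Vcl, by 0.44 ± 0.09 (0.00816). Of 13 signalling kinases 3 rose and 1 fell. Among those that rose, Syk was at 0.50 ± 0.10 (edgeR adjusted p = 0.00685) and the Src family kinase Fgr at 0.43 ± 0.09 (edgeR adjusted p = 0.0108).

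In middle against low gels Tes (0.70 ± 0.14, edgeR adjusted p = 0.0369) and Vasp (0.50 ± 0.11, edgeR adjusted p = 0.0454) were the tested genes of these pathway lists that rose, and none fell; between high and middle gels none passed. In replicates 2 and 3 alone, without a block, the counts for high against low moved to 6 higher and 5 lower of 25 focal adhesion genes, 6 higher and 1 lower of 13 kinases and 2 higher and 2 lower of 14 activators and inhibitors, beside 26.3% of all tested genes called in that fit.

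The ligands of these receptors were measured as mRNA in the same libraries, which does not show that the same cells make both. A list of fibronectin, vitronectin, other RGD ligands and Vcam1 held 12 genes, of which 9 were tested. In high against low gels 3 rose and 1, Vcam1, fell, with a median log2 fold change of 0.39. Vtn, vitronectin, was near the floor, at a mean of 0.308 CPM in high and 0.345 CPM in low gels. Fn1, fibronectin, had 4.30, 32.4 and 35.7 CPM in low gels, 12.9, 78.1 and 99.3 CPM in middle gels and 10.6, 107.3 and 215 CPM in high gels. Replicate 1 was lowest in every gel, and Fn1 rose by 1.99 ± 0.27 (edgeR adjusted p = 0.00636) with the block and missed the threshold without it (0.755). Thbs1, thrombospondin, rose by 0.68 ± 0.14 (edgeR adjusted p = 0.00773), and Vcam1, the ligand of Itga4, had a log2 fold change of -1.16 ± 0.20 (edgeR adjusted p = 0.00326).

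Among 8 tested collagen genes 2 fell and 0 rose: Col1a2 had a log2 fold change of -1.04 ± 0.26 (edgeR adjusted p = 0.0232) and Col1a1 of -0.67 ± 0.17 (edgeR adjusted p = 0.0248). Both are also in the stromal marker list, and the other 7 genes of that list summed to 7.11 to 12.0 CPM in high gels and 5.43 to 13.8 CPM in low gels, which overlap. Of 6 tested laminin and basement membrane genes, Lamc1, a laminin gamma chain, rose by 0.84 ± 0.12 (42.9 ± 21.3 CPM in high and 23.3 ± 9.63 CPM in low gels, edgeR adjusted p = 0.000994) and none fell. Without the block, of the genes of these pathway lists named here other than Itgb3, Tes alone passed for high against low.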

How the data were processed

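RNA was measured in 9 libraries by stranded poly(A) RNA sequencing. The submitters' processing notes name the build GRCm39, DESeq2, HTSeq 0.6.1, HISAT2 2.0.1 and cutadapt 1.9.1, without settings. The authors deposited, for each library, raw counts per gene, with no normalization, and FPKM (counts scaled for exonic length and library depth), which equalled values recomputed from the counts and gene sizes in 100% of genes within 0.0051. FPKM was used only to set levels between genes. Counts were filtered with filterByExpr, normalised by TMM and tested with edgeR 4.0.16 in R 4.3.3 (quasi-likelihood, robust, all 9 libraries in 1 fit, two-sided, Benjamini-Hochberg adjusted p under 0.05 over 12094 genes; 12214 in the fit of replicates 2 and 3). Standard errors are absolute log2 fold changes over the root of F. DESeq2 1.42.0, other scaling, filters and samples were tried as alternatives. Scripts were tested on simulated data; figures used Python 3.11.15 and matplotlib 3.10.9.

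After removal of group means, the 9 same-number pairs of libraries correlated at 0.64 to 0.886. Replicates 2 and 3 of different groups correlated at 0.587 to 0.749, which overlaps that range, and 5 of 9 libraries were closest to their own number. Pairs of replicate 1 with 2 or 3 correlated at -0.817 to -0.68. The data thus set replicate 1 apart but do not show that replicates 2 and 3 are paired by number. In the design the fit without the block was the main one and the block an alternative, printed beside it. Libraries within groups differed beyond sampling noise (chi-square per degree of freedom 5.25 to 216). The biological coefficient of variation was 0.337 without and 0.115 with the block.

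The chains, lists and tests were chosen with earlier results of these data known. Named genes are all 9 chains, up to 3 called genes of each pathway list with the smallest adjusted p with the block, and the 3 genes most like each chain, of which 2 genes are not reported here; other names, and the platelet and macrophage genes shown, were chosen after their values were seen, as were the genes left out of marker sums. The 11 marker lists were neutrophil, macrophage, osteoclast, megakaryocyte and platelet, stromal, endothelial, T and NK cell, B cell, dendritic cell, mast cell with eosinophil and basophil, and erythroid. Promoters and gene overlaps come from RefSeq on GRCm38.p6, another build than the files', so no position is compared with the files.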

Additional observations from a re-analysis of the deposited data

How the results depend on the processing

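Counts of chains called moved as follows. For high against low, 1 chain was called without the block; 5 were called with the replicate block, 2 by DESeq2, 5 by DESeq2 with replicate block, 0 when only the 2 groups were fitted, 6 in replicates 2 and 3 only and 5 there with a block, and with 1 library left out 0 to 1 without the block and 4 to 5 with it. For middle against low, 0 were called without the block; 3 were called with the replicate block, 1 by DESeq2, 3 by DESeq2 with replicate block, 3 in replicates 2 and 3 only and 4 there with a block, and with 1 library left out 0 without the block and 0 to 4 with it. For high against middle, 0 were called without or with the block, 1 by DESeq2 with replicate block, 4 in replicates 2 and 3 only, without or with a block, and with 1 library left out 0 without the block and 0 to 2 with it. For replicate 1 against replicates 2 and 3, 6 were called, and 5 to 7 with 1 library left out. The cause of these moves was not tested, apart from the smaller samples that some fits use by construction. The log2 fold changes that turned sign were all of chains that did not pass. For Itga4, high against low was -0.14 with the replicate block and -0.13 by DESeq2 with it, against 0.03 without. For Itga5, replicate 1 against the others was -0.01 (-0.0086) with DESeq2 size factors, -0.0017 with no filter and -0.0074 by DESeq2. For Itgb5, middle against low was 0.08 (0.0778 and 0.0783) in replicates 2 and 3 without and with a block. With 1 library left out, Itga4 ran from -0.38 to 0.51 for high against low, -0.22 to 0.65 for middle against low and -0.62 to 0.31 for high against middle. Itgb5 ran from -0.34 to 0.071, -0.30 to 0.17 and -0.33 to 0.17 in the same 3 comparisons, Itgav from -0.066 to 0.21 for high against low and -0.13 to 0.024 for middle against low, and Itgb1 from -0.014 to 0.092 for middle against low. For replicate 1 against the others Itga5 ran from -0.072 to 0.086 and Itgb3 from -0.22 to 0.020. The other alternatives of single chains kept the direction. Depth limits Itga2 most, with 8 to 100 counts per library.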

Other observations

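Marker lists not set beside the chains above had these summed levels in high and in low gels: endothelial 26.3 to 46.2 CPM and 38.3 to 46.7 CPM, B cell 38.0 to 173 CPM and 58.9 to 223 CPM, T and NK cell 0.924 to 3.63 CPM and 1.36 to 5.43 CPM, dendritic cell 28.0 to 38.1 CPM and 36.4 to 66.9 CPM, mast cell with eosinophil and basophil 16.4 to 49.5 CPM and 58.3 to 97.3 CPM, and erythroid 213 to 718 CPM and 409 to 501 CPM. With the block, 3 of the 9 mast cell, eosinophil and basophil genes fell and 0 rose in high against low gels. Over all tested genes 8.73% were lower and 6.72% higher.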
